A study of Mus musculus with 16 samples.

Results

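Whole colon from mice lacking Smarcad1 in the intestinal epithelium (KO) was compared between animals with dextran sulphate sodium (DSS) colitis and animals without it. The set described here holds every gene of the deposited list of genes that passed the study's own DESeq2 test between KO colitis and KO control at a false discovery rate under 0.05. It has 4056 genes out of 5171 that occur in any of the study's 4 such lists, so 78.4% of all tabled genes belong to it. The same comparison in wild type (WT) colon gave a list of 3261 genes. Because the KO libraries chose the 4056 genes, their KO changes are a description and carry no further test here. The WT values come from other animals and took no part in that choice. Counts below of genes with a WT change above or below the KO change are affected by it. The share over all 4056 genes is not given beside them, so they are no result about genotype.

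The 16 libraries were 3 KO control, 5 KO colitis, 3 WT control and 5 WT colitis. All mice were male and on the C57BL/6 background, and their ages are not given per sample in the sources used here. KO mice carried Smarcad1 alleles with loxP sites around an exon block and the Villin-Cre transgene Tg(Vil1-cre)997Gum, which is active in gut epithelium, so stromal, muscle, nerve and immune cells kept the gene. The allele came from a single embryonic stem cell clone. Every group, controls included, received an enriched microbiota by bedding transfer. The colitis groups then drank 1% DSS for 15 days, and RNA came from washed, snap-frozen whole tissue with LiCl precipitation to remove DSS. Smarcad1 itself, read from this whole tissue, had group means of 4.59 log2 RPM in KO control, 4.55 in KO colitis, 5.77 in WT control and 5.68 in WT colitis, and it was not in the KO colitis list.

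DSS is a sulphated polysaccharide that injures the colonic surface. Bacteria and their products then reach the mucosa, tissue macrophages release cytokines, and neutrophils, monocytes and lymphocytes enter from blood, while the epithelium turns on antimicrobial proteins and, under interferon gamma, antigen-presenting genes. Smarcad1 is a chromatin remodeller known for keeping histone H3 lysine methylation in place after DNA replication.

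The deposited values are group means of log2 RPM, where RPM is reads per 1000000 mapped reads of a library, so a value per animal, its spread and any test across animals could not be given. A level below is a group mean in log2 RPM, and a change is colitis minus control on that scale. "Rose" and "fell" are used only of genes of the KO list. The depth behind the means was 8.005 M to 10.1 M reads per library (geometric mean per group, read off the means of genes with no reads). A mean at or below 3 reads per library, which is -1.70 log2 RPM in KO control and -1.72 in KO colitis, was treated as a floor, and a fold against it is a lower bound. Intervals and floors of this kind cover counting error only. In whole tissue, fewer cells of a type and less RNA per cell cannot be told apart.

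Of the 4056 genes 2316 rose (57.1%) and 1740 fell. The median rise was 0.59, with quartiles at 0.33 and 1.30, and the median fall was -0.75, with quartiles of its size at 0.50 and 1.16. A rise of at least 1 was seen in 768 genes (18.9%), and a fall of at least 1 in 567 (14.0%). Beyond 3 on the log2 scale the list was one-sided, with 85 rises and 12 falls. The smallest change in the list was 0.11, so it includes genes that moved very little. Genes that rose drew 30.6% of reads in KO control and 42.9% in KO colitis, as sums of geometric means. Genes that fell drew 20.1% and 12.9%.

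The largest change belonged to Clca4b, a member of the calcium-activated chloride channel regulator family (GRCm38 chr3:144910921-144932529). Its mean was 2.35 in KO control and 9.87 in KO colitis, a 184-fold difference, against 2.50 and 10.20 in WT. Next came Gm4841, an interferon-induced GTPase, which lay under the floor in KO control and at 3.66 in KO colitis, at least 41.1-fold higher. The other large rises were inflammatory. S100a8 and S100a9, the calprotectin subunits stored in neutrophils, were at least 24.0-fold and at least 39.4-fold higher. Saa3, an acute phase protein, went from 0.73 to 5.77, Ltf (lactoferrin) was at least 15.5-fold higher, and Cxcl9, a chemokine for T cells, went from 1.22 to 5.85. Cxcr2, the neutrophil chemokine receptor, was at least 8.71-fold higher, the mast cell protease Mcpt2 at least 27.0-fold and the serine protease Prss22 at least 8.41-fold.

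The largest falls were of low-abundance genes. Lancl3 went from 2.53 to -1.40 (a change of -3.93), and Tdo2, a tryptophan-degrading enzyme, from 3.26 to 0.10. Sln (sarcolipin, a regulator of the muscle calcium pump) was at least 3.55-fold lower, Nyx at least 3.86-fold and Fbxw22 at least 4.42-fold. The other 5 of the 10 largest falls were not annotated as protein coding, and 4 of those 5 (Gm38357, Gm43858, Gm37121 and Gm45540) were of the class TEC, an annotation label for transcripts awaiting experimental evidence. Among well-expressed genes Sgk1, a kinase that keeps the epithelial sodium channel at the membrane, went from 8.95 to 6.33 and Tppp, a tubulin polymerisation promoting protein, from 8.15 to 5.74. In WT those genes changed by -2.35 and -2.69.

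**Figure D1:**
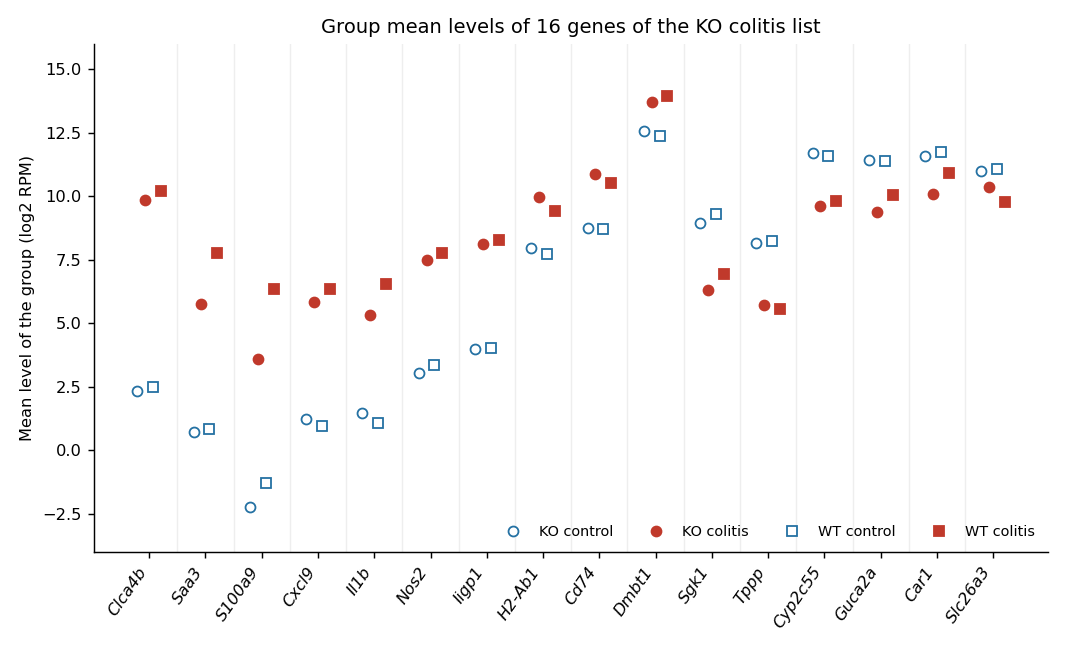
Group mean levels (log2 RPM) of 16 genes of the KO colitis list, with KO as circles, WT as squares, control open and colitis filled; single animals are not in the deposited values, so no error bars are drawn. In both genotypes the colitis mean lies above the control mean for the 10 genes on the left and below it for the 6 genes on the right, and Clca4b spans 2.35 to 9.87 in KO.

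Neutrophil genes had the largest median of the gene lists. Of 28 genes in the neutrophil list 22 were in a table and 16 in the KO list, and these 16 rose, with a median of 2.91 against 0.59 over all genes that rose. Control means of 7 of the 16 were at the floor, and with these raised to 3 reads the median was 2.86. Csf3r, the receptor for granulocyte colony-stimulating factor, went from 1.15 to 4.10, Clec4d, a lectin receptor of myeloid cells, from -0.60 to 2.29, and Il1r2, a decoy receptor for interleukin-1, from -0.19 to 2.66. The same 16 genes had a WT median of 4.40, or 3.76 with means at the floor raised in the same way, and the WT change was above the KO change in 14 of them. S100a9 reached 3.60 in KO colitis and 6.36 in WT colitis, and Cxcr2 1.42 and 3.09. This difference between genotypes was not tested. Of the defining markers Mpo, Elane and Ngp were in no table. The summed level of the other 5 was 101 RPM in KO control and 275 RPM in KO colitis, most of it Ly6g (6.62 to 7.88). In KO control S100a8 (-2.95), S100a9 (-2.23) and Cxcr2 (-3.44) lay under the floor. The sum therefore follows Ly6g and is no measure of neutrophil number, and the source of the Ly6g reads was not tested.

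Acute phase and antimicrobial genes split by role. Each of the 10 oxidant-producing enzymes and their partners that were in a table rose, with Nos2, the inducible nitric oxide synthase, going from 3.02 to 7.50 (22.4-fold), Duoxa1, the maturation factor of a hydrogen peroxide producing oxidase, from 4.17 to 5.66, while Cybb, the phagocyte oxidase subunit, was 2.59-fold higher. Among secreted proteins 8 of the 15 tabled genes were in the KO list and rose, led by Saa3, Chil3, Lcn2 (lipocalin, which withholds iron from bacteria; 1.94 to 4.20) and Chil1 (-0.53 to 1.59). The other 7 were not, and some of those had larger differences of means than the members. Reg3b, a lectin that kills bacteria, had means of 1.49 and 9.24, Reg3g 1.30 and 7.65, Retnlb 3.94 and 8.67, and Hp (haptoglobin) 2.79 and 5.16. These genes were in the WT list and missed the KO list, and without values per animal the spread behind that cannot be given.

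Of 54 cytokine and chemokine genes 40 were in a table and 36 in the KO list, with a median of 2.08. All but 2 of the 36 rose. Of 13 CCL chemokines in the list 12 rose. Ccl8, Ccl2 and Ccl7, which draw monocytes, went from 3.22 to 6.14, from 0.49 to 3.24 and from 0.75 to 2.80. Ccl5, made by T cells, went from 1.20 to 4.19. The 9 CXCL members rose, among them the neutrophil attractants Cxcl5 (0.12 to 4.21) and Cxcl2 (at least 9.34-fold) and the T cell attractant Cxcl10 (2.08 to 4.61). Among cytokines Il1b went from 1.48 to 5.31, Tnf from 1.04 to 3.78, Il11 from -1.32 to 2.07 and Osm from -1.56 to 1.40, while Ifng, with no reads in the KO controls, was at least 3.17-fold higher. Il15 (4.26 to 3.68) and Ccl25 (3.49 to 2.89), 2 factors that support intraepithelial lymphocytes and draw T cells to gut epithelium, fell. Il6 had a KO colitis mean of 0.44 and Il22 of -0.52, each with no reads in KO control, and neither was in the KO list. The WT change was above the KO change in 29 of the 36 members, again with no test.

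Interferon-induced genes were the largest of the gene lists whose members in the KO list moved one way. Interferons act through transcription factors that bind short promoter motifs and switch on guanylate-binding proteins and immunity-related GTPases that attack pathogens inside cells. Of 61 genes in the list 54 were in a table and 53 in the KO list, and each of these rose, 41 of them by at least 1. The 19 GTPases had a median of 2.46. Iigp1 went from 3.99 to 8.11, Gbp2 from 5.26 to 8.10, Igtp from 4.70 to 7.35 and Ifi47 from 3.60 to 6.49. Tgtp1 (0.61 to 4.53) and Tgtp2 (1.04 to 4.24) are near-identical copies, so reads mapped to a unique place may divide between them unevenly and each value is uncertain. Among other effectors Ido1, which breaks down tryptophan, went from 2.83 to 7.15, Ifit2 from 4.18 to 7.30 and Acod1, the itaconate synthase of macrophages, from -0.96 to 2.66. The 9 signalling genes had a median of 0.96. Irf1 went from 8.33 to 9.10, and the feedback inhibitors Socs1 and Socs3 from 2.63 to 4.87 and from 4.41 to 7.04. The WT median over the 53 was 1.77, as in KO (1.77), although the WT change was above the KO change in 40 of the 53 genes and in 17 of the 19 GTPases (WT median 2.96). These differences were not tested.

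RefSeq windows of 300 bases around gene starts (250 before and 50 after, GRCm38.p6) were found for 34 of these 53 genes. The interferon-stimulated response element, searched as GAAANNGAAA on both strands, was in 20 of their 39 windows (51.3%). It was in 3.44% of all 32851 windows, in 6.85% of windows of genes that rose and in 2.49% of those that fell. For genes that rose in the other lists searched it was in 0.0% to 21.4% of windows. The share was 15.9% of 44 windows for cytosolic ribosomal protein genes. It was 19.2% of 26 for antigen presentation and 21.4% of 14 for acute phase and antimicrobial genes. The gamma-activated site, searched as TTCNNNGAA, was in 33.3% of the 39 windows and in 8.30% of all windows. Stretches of 70 bases from 3 GTPase promoters are shown on the strand of the gene, with the response element in capitals, because they put the motif beside 3 of the larger rises. They lie on GRCm38.p6 at chr11:48992284-48992353 (minus strand), chr11:49064243-49064312 (minus strand) and chr3:142620574-142620643 (plus strand), and the motif begins 77, 70 and 59 bases before the gene start.
Tgtp1: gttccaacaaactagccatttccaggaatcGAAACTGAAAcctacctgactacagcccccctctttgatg
Tgtp2: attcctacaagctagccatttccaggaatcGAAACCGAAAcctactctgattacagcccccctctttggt
Gbp2: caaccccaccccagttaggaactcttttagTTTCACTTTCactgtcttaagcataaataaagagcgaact
In Gbp2 the motif stands on the opposite strand. A match describes the letters of the window and says nothing of binding. The NF-kB motif, searched as GGGNNTTTCC, was in 20.0% of 30 windows of cytokine and chemokine genes that rose and in 1.63% of all windows.

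Antigen presentation rose throughout the tabled genes: 29 of 31 listed genes were in a table, the same 29 in the KO list, and each went up. The 8 class II genes had a median of 2.01, with the transactivator Ciita going from 4.11 to 6.11, the invariant chain Cd74 from 8.77 to 10.90, H2-Ab1 from 7.97 to 9.99, H2-Aa from 7.86 to 9.92 and the peptide exchange factor H2-DMb1 from 4.58 to 7.07. The WT change was below the KO change in 8 of 8 class II genes, with a WT median of 1.75. The KO values chose these genes and the WT values did not, and the difference was not tested. In class I the WT change was above the KO change in 5 of 11 genes (medians 0.95 and 1.00). In peptide processing it was above in 7 of 10 (1.04 and 0.97). The class I transactivator Nlrc5 went from 3.08 to 5.68, B2m from 9.44 to 10.88, and the near-identical copies H2-Q6 and H2-Q7, whose values are uncertain, rose by 2.49 and 2.55. Peptide supply rose as well. The immunoproteasome subunits Psmb8 and Psmb9 rose by 2.43 and 2.19, and the peptide transporter subunits Tap1 and Tap2 by 2.23 and 1.01.

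Immune cell genes rose with them. Of 24 T and natural killer cell genes 23 were in the KO list and rose, 22 by at least 1. Cd8a went from -0.24 to 3.07, Cd3d from -0.14 to 2.81, Gzmb from -0.50 to 3.21 and Gzma, at the floor in KO control, was at least 19.6-fold higher. Cd4 rose less (3.69 to 4.84). The 6 T cell markers summed to 18.2 RPM in KO control and 64.5 RPM in KO colitis. All 18 monocyte and macrophage genes that were in a table rose, with Ccr2, the receptor of entering monocytes, at 3.35 and 5.92, Fcgr4 at 1.81 and 4.82 and the long-lived macrophage marker C1qa at 6.82 and 7.90. Their 6 tabled markers summed to 355 and 702 RPM. Mucosal mast cell proteases rose, with Mcpt1 at 0.34 and 3.71 and Cpa3 at -0.97 and 0.83. Kit, which marks mast cells and also the pacemaker cells of gut muscle, fell (7.50 to 6.87). Of 18 B and plasma cell genes 2 were in the KO list (Cd79b and Xbp1). None of 6 markers was in any table, so their levels and changes cannot be given.

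Of 35 genes for Toll-like receptors, inflammasomes and the NF-kB pathway 22 were in a table, the same 22 in the KO list. They gave 21 rises and 1 fall, with a median of 0.86, where 57.1% of the whole KO list rose. Nlrp3, the inflammasome sensor, went from 0.23 to 2.13, and Tlr13, a sensor of bacterial ribosomal RNA, from 2.54 to 4.20. Tnfaip2, an NF-kB target, went from 4.50 to 5.89. Tlr5, the flagellin receptor, fell from 3.37 to 2.61. Of 35 complement and coagulation genes 22 were in a table and 20 in the KO list, and these 20 rose. C3, the central complement component, went from 7.58 to 9.21, C6 from -1.65 to 1.26, the protease inhibitor Serpina3n from 5.45 to 7.67 and F10, a coagulation factor at the floor in KO control, was at least 7.14-fold higher.

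The supporting tissue split by type. Of 15 endothelial genes 6 were in a table, the same 6 in the KO list. Of these 5 rose, and the 5 were adhesion molecules that let leukocytes leave the blood. Selp went from 1.19 to 3.51, Madcam1 from 1.92 to 3.84, Vcam1 from 4.49 to 6.05, Icam1 from 4.59 to 5.72, and Sele was at least 2.59-fold higher. Tek, a receptor of resting endothelium, fell (4.74 to 4.28). The endothelial identity markers Pecam1, Cdh5, Kdr and Vwf were in no table. Of 14 fibroblast genes 6 were in a table and 3 in the KO list. These 3 rose, led by Grem1 (7.13 to 8.62), an inhibitor of bone morphogenetic proteins. Of 20 contractile genes 9 were in a table and 6 in the KO list. These 6 fell, with a median of -0.58, among them Myh11 (10.86 to 10.27) and Smtn (7.92 to 7.26). The smooth muscle genes Actg2, Des, Tagln, Cnn1 and Tpm2 were in no table. Of 24 enteric neuron and glial genes 15 were in a table and 11 in the KO list, with 10 falls and 1 rise. Nos1, the nitric oxide synthase of inhibitory motor neurons, went from 5.57 to 4.09 and Elavl4 from 3.59 to 2.25, whereas Tac1, the precursor of substance P, went from 4.86 to 5.98. Of 22 genes on tubulin and the cytoskeleton 10 were in a table and 8 in the KO list. These 8 fell, led by Tppp and Tppp3 (7.54 to 5.48). The glial markers S100b and Sox10 were in no table.

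Matrix-degrading enzymes and matrix genes were in the KO list in part. Of 74 metalloproteinases 26 were in a table and 17 in the KO list. Of these 17 genes 14 rose, with a median of 1.53 over the 17. Mmp10 and Mmp3 (stromelysins) went from 0.06 to 4.47 and from 1.44 to 5.42, Mmp25 from -1.13 to 1.83 and Mmp7 (matrilysin) from -0.26 to 2.53. Adam33, Adam11 and Mmp15 fell. Adamts18 was not in the KO list, with means of 2.24 and -1.81. Of 67 matrix genes 33 were in a table and 17 in the KO list. These 17 gave 12 rises and 5 falls with a median of 0.53, where 57.1% of the whole KO list rose. The 16 tabled outside it had 7 positive and 9 negative KO differences. Timp1, the inhibitor of metalloproteinases, went from 1.32 to 3.99, the crosslinking enzyme Lox from 3.43 to 4.70 and Col18a1 from 6.71 to 7.47. Col8a1 (7.55 to 6.37) and Col25a1 (1.87 to 0.51) were among the falls. The WT change was above the KO change in 16 of the 17 metalloproteinases and in 16 of the 17 matrix genes. For Col1a1 these were 1.23 and 0.56, with no test of the difference.

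**Figure D2:**
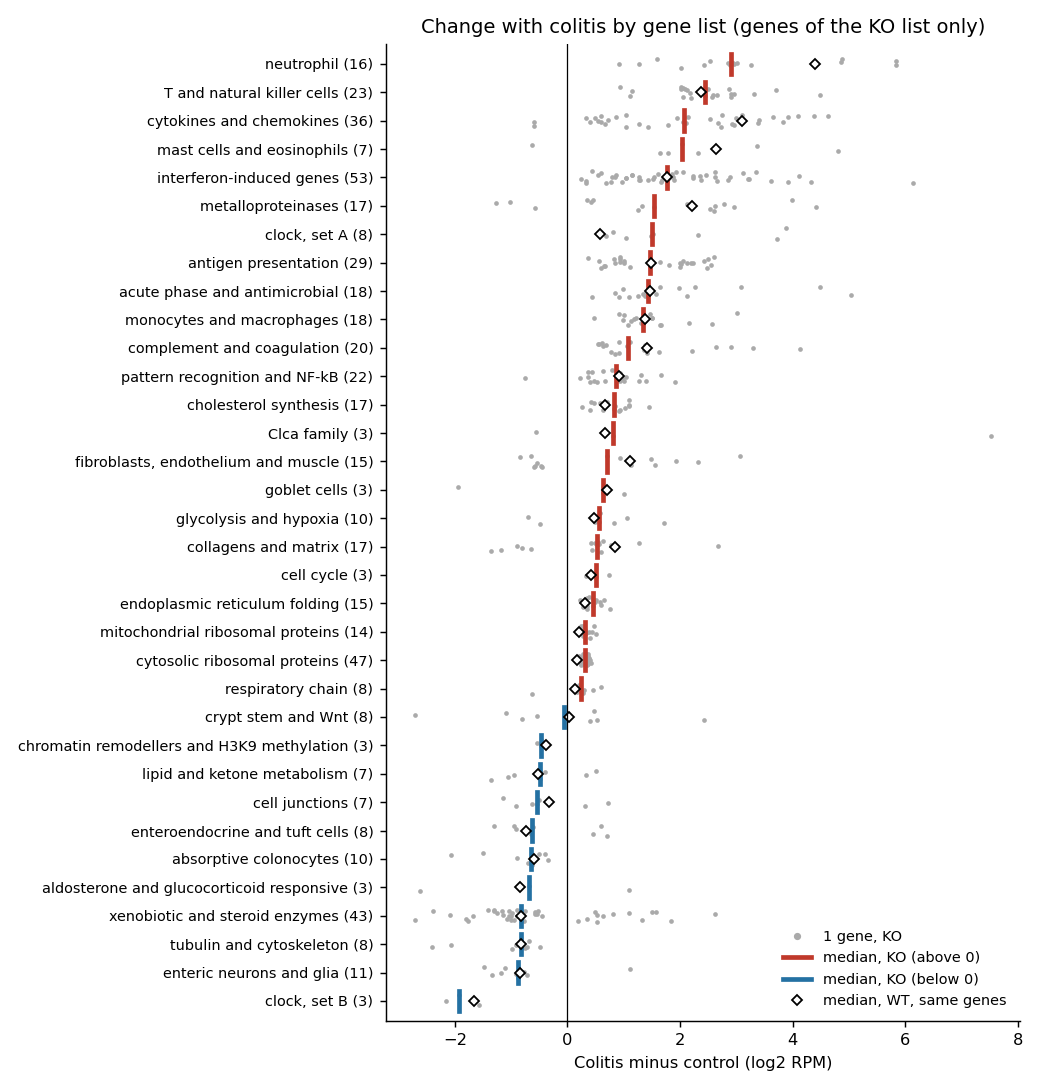
Change with colitis (log2 RPM, x axis) for the 34 gene lists with 3 or more genes in the KO list, with the number of those genes in brackets; grey points are single genes in KO, bars are KO medians and open diamonds are WT medians of the same genes. Neutrophil genes lie at the top with a KO median of 2.91 and clock set B at the bottom with -1.93. The WT median stands to the right of the KO median for neutrophil genes (4.40) and to the left for clock set A (0.58 against 1.50).

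Genes of the absorptive epithelium that were in the KO list fell. Surface colonocytes recover salt and water through exchangers and channels, supplied by carbonic anhydrases. Of 39 colonocyte genes 18 were in a table and 10 in the KO list, which held 78.4% of all tabled genes. All 10 fell, with a median of -0.64. The 8 found only in other tables had negative KO differences as well. Guca2a (guanylin, a peptide that sets fluid secretion) went from 11.43 to 9.36, Car1 from 11.59 to 10.10, the water channel Aqp8 from 10.84 to 9.95 and the chloride exchanger Slc26a3 from 10.98 to 10.36. Slc34a2, a phosphate transporter, had means of 7.15 and 3.91 and was not in the KO list. The 4 tabled colonocyte markers summed to 8632 RPM in KO control and 4546 RPM in KO colitis, while Krt20, Epcam and Vil1 were in no table. Fabp6, the ileal bile acid binding protein and the one of 5 small intestine markers found in a table, had KO means of 1.41 and 3.11. Of genes under aldosterone or glucocorticoid control Sgk1 and the sodium channel subunit Scnn1a (8.31 to 7.63) fell, and Hsd11b1, which regenerates active glucocorticoid, rose (3.11 to 4.21).

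Other epithelial types gave mixed results. Among goblet cell products Spink4 rose (9.05 to 10.06), and the antimicrobial ribonuclease Ang4 fell (6.36 to 4.41 in KO, 7.95 to 3.97 in WT). Muc13, a membrane mucin listed with them but not confined to goblet cells, rose (11.86 to 12.50). Muc2, Fcgbp, Zg16 and Tff3 were in no table. Clca1, a goblet cell product, had KO means of 13.22 and 12.65 and WT means of 14.04 and 12.89, and was in the WT list but not in the KO list. In the same family Clca3b rose (8.79 to 9.60) and Clca4a fell (9.94 to 9.39), so Clca4b, at 7.52, stood apart from its relatives. The tuft cell genes Trpm5 (4.38 to 3.07) and Dclk1 (5.52 to 4.91) fell, although not every tuft cell gene in the table did. Of enteroendocrine genes Tph1, which makes serotonin, fell (5.96 to 5.01), and the peptide hormones Gcg (6.80 to 7.25) and Pyy (6.53 to 7.12) rose. Crypt and Wnt genes divided 4 to 4. Notum (at least 3.24-fold lower), Tnfrsf19, Axin2 and Nkd1, targets of Wnt signalling, fell, and Ly6a, a marker of regenerating colon epithelium that T cells and endothelium also express, went from 8.09 to 10.51. Of 37 cell cycle genes 3 were in the KO list, each a rise under 1. In cell junctions Cldn8 (7.99 to 6.84), Cldn4 (7.60 to 6.68), Cldn23 and the tight junction protein Ocln (8.10 to 7.57) fell, and the gap junction protein Gjb2 rose (4.24 to 4.97).

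Metabolic genes divided by pathway. Of 223 enzymes for foreign compounds, retinoids and steroids 62 were in a table and 43 in the KO list. Of these 43 genes 30 fell and 13 rose, with a median of -0.82. Cyp2c55, a cytochrome P450 of colon, went from 11.69 to 9.60, Cyp2c69 from 4.23 to 1.84, the steroid dehydrogenases Hsd3b2 from 5.92 to 4.15 and Hsd17b14 from 1.50 to -1.21, and the carboxylesterase Ces2a from 8.90 to 7.61. Ces2f (-1.17 to 1.45) and the retinoic acid producing enzyme Aldh1a3 (3.37 to 4.87) rose. Of 31 fat oxidation genes 11 were in a table and 7 in the KO list, with 5 falls and 2 rises. Pdk4, a brake on glucose oxidation, went from 4.02 to 2.67 and the nuclear receptor Ppara from 4.14 to 3.08. Of 28 glycolysis and hypoxia genes 10 were in the KO list, where 8 rose and 2 fell, among them the hexokinase Hk3 (2.06 to 3.79), found in leukocytes, Hif1a (8.08 to 8.90) and, in the other direction, Vegfa (7.17 to 6.47). The glycolytic genes Gapdh, Ldha, Pkm, Aldoa, Tpi1 and Pgam1 and the glucose transporter Slc2a1 were in no table.

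Cholesterol synthesis rose, in contrast to the fat oxidation genes that fell. This pathway runs from acetyl-CoA through mevalonate and squalene, and its genes are switched on together by the transcription factor SREBP2 when membrane sterol is low. Of 19 listed genes 17 were in the KO list and rose, with a median of 0.83 against 0.66 in WT, and 16 of the 17 were also in the WT list. Hmgcs1 went from 9.05 to 10.08, Mvd from 6.32 to 7.41 and Insig1, which holds the pathway back when sterol is plentiful, from 7.56 to 8.65. Windows were found for 10 of these 17 genes. A sterol regulatory element, searched as TCACNCCAC on both strands, was in 1 of the 10 windows and in 1.24% of all windows. It was in 1.13% of windows of genes that rose and in 1.74% of those that fell. Of the same 10 windows the NF-kB motif was in 1 and CACGTG, taken up below, in 2. The sterol element was in Hmgcs1 (GRCm38.p6 chr13:119690183-119690252, plus strand), 137 bases before the gene start. It is shown in capitals as the 1 match in the windows found, and the other genes were not searched.
Hmgcs1: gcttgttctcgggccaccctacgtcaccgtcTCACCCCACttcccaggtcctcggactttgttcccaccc

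Cytosolic ribosomal protein genes gave small rises. Of 86 cytosolic ribosomal protein genes 47 were in the KO list, and these rose by 0.18 to 0.42 with a median of 0.30. Of the same 47 genes 1, Rps12, was in the WT list. Their WT median was 0.16, and the WT change was below the KO change in 47 of 47. The KO values chose these genes and the WT values did not, and the difference was not tested. Ribosomal protein genes have many processed pseudogenes, and their values rest on reads that mapped to a unique place. The 47 genes had a median merged exon length of 1770 bases, and in the shortest of 5 equal tiers of the KO list by that length (up to 2108 bases) the median change was 0.42. Of 78 mitochondrial ribosomal protein genes only 14 were in the KO list, each a rise (median 0.32), and of 83 respiratory chain genes only 8 were, with 7 rises and 1 fall (median 0.25), so most members of both lists were not in it. Of 26 genes for protein folding in the endoplasmic reticulum 15 were in a table, the same 15 in the KO list. Each rose (median 0.45), with Sec61b at 7.30 and 8.06, Manf at 7.84 and 8.48 and Hspa5 at 10.05 and 10.56. Of those 15 folding genes 7 were in the WT list.

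Clock genes of the KO list moved in opposite directions by set. The sets were drawn with earlier results of these data known, so this opposition is a description only. The circadian clock is a loop in which Arntl, with Clock or Npas2, drives its own repressors and output factors, so the sets peak at opposite times of day. Of the output and repressor genes (set A) 8 of 10 were in the KO list and rose. Ciart went from -0.31 to 3.57, Dbp from 3.25 to 6.97, Tef from 5.24 to 7.56 and Nr1d2 from 5.78 to 7.31. In set B, with 3 of 6 genes in the KO list, Arntl (7.26 to 5.11), Npas2 (6.27 to 4.34) and Cry1 (6.16 to 4.59) fell. Cry1 is itself a repressor of the loop but was listed in set B. The WT changes of these genes had the same signs, with 1.73 for Ciart, 1.72 for Dbp and -1.66 for Arntl. The WT change was below the KO change in 8 of 8 set A genes (medians 0.58 and 1.50), and 4 of the 8 were in the WT list. The KO values chose these genes too, and the difference was not tested. A pair of tabled clock genes outside the KO list had opposite signs in the genotypes: Nr1d1 of set A changed by 0.90 in KO and -0.23 in WT, and Nfil3 of set B by -0.21 and 0.64. The KO control means lay below WT control for Ciart (-0.31 and 0.89) and Dbp (3.25 and 4.28), and Nr1d1 and Nr1d2 were in the direct list of KO against WT in control. The hour of tissue collection is not given in the sources used here, and its part in these values was not tested.

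The E-box CACGTG, to which the Arntl dimer binds, was in 4 of 8 windows of set A genes (50.0%), in 7.15% of all windows, in 9.58% of windows of genes that rose and in 7.77% of those that fell. Stretches from 3 of these promoters are shown with the E-box in capitals, since they join the members with the largest and the smaller rises of the set. They lie on GRCm38.p6 at chr3:95882307-95882376 (minus strand), chr15:81802514-81802583 (plus strand) and chr6:145865536-145865605 (minus strand), with the E-box 116, 127 and 153 bases before the gene start, and the Ciart window holds 3 of them.
Ciart: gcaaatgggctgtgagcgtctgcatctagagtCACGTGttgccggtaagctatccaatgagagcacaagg
Tef: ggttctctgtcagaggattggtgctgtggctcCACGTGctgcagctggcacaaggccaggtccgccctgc
Bhlhe41: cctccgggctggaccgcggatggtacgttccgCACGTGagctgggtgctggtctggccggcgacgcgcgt
The same motif was in 15.9% of 44 windows of the ribosomal protein genes that rose.

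**Figure D3:**
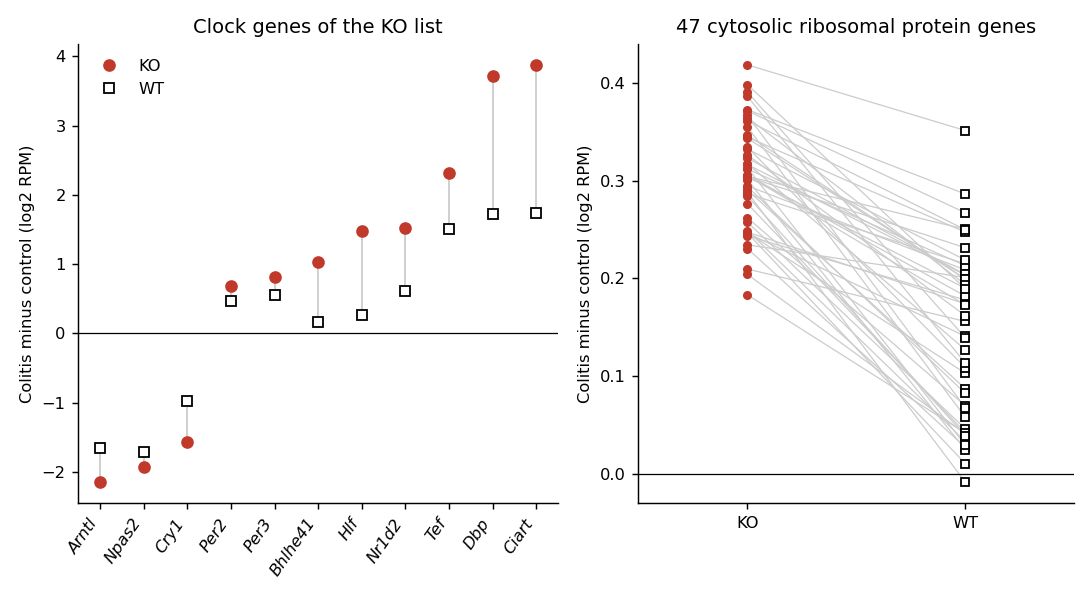
Change with colitis (log2 RPM) in KO (filled) and WT (open) for the 11 clock genes of the KO list (left) and for its 47 cytosolic ribosomal protein genes (right, lines join the same gene); each point is a difference of 2 group means. Ciart stands at 3.88 in KO and 1.73 in WT, and each ribosomal line runs downward from KO to WT.

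The WT colon gave the same direction for nearly every gene. Of the genes that rose in KO 2268 (97.9%) had a positive WT change, with a median of 0.57, and of those that fell 1731 (99.5%) had a negative one, with a median of -0.63. The WT list held 2182 of the 4056 genes (53.8%, and 66.9% of the WT list), with 1393 that rose and 789 that fell. Among the 57 genes with opposite signs 3 had KO and WT changes at least 1 apart. Trpv6, the epithelial calcium channel, had means of 0.68 and 2.58 in KO and of -0.03 and -0.38 in WT. Nccrp1 changed by 1.24 in KO and -0.19 in WT, and E230020D15Rik by -1.95 and 0.31. The highest of the 12 means of these genes was 2.58, and the difference between the KO and the WT change was not tested. In the direct lists of KO against WT, which are small with 46 genes in control and 56 in colitis, Trpv6 was in the colitis list and Nccrp1 and E230020D15Rik were in neither.

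**Figure D4:**
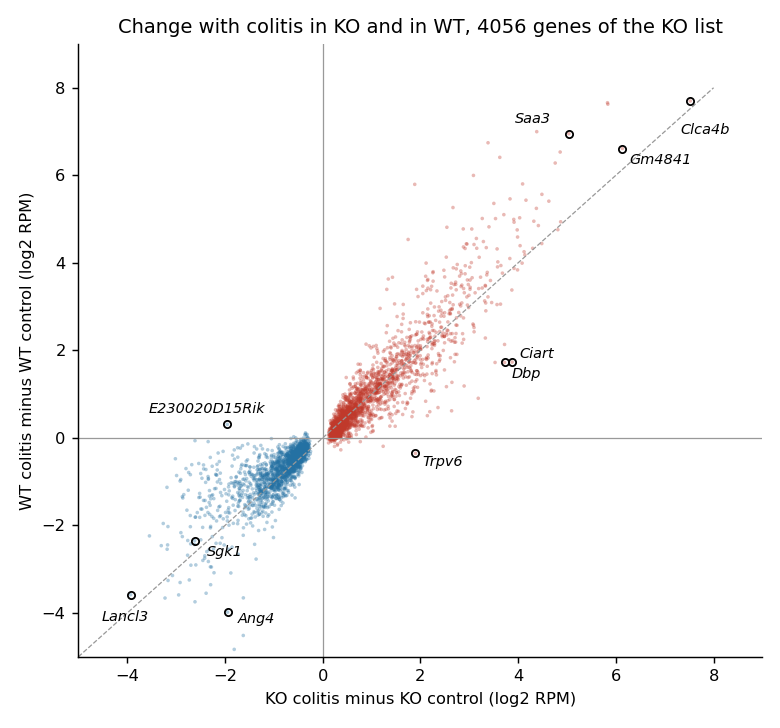
Change with colitis in KO (x axis) and WT (y axis), both as differences of group means in log2 RPM, for the 4056 genes of the KO list; red genes rose and blue genes fell in KO, and the dashed line marks equal change. Points fill the upper right and lower left, and 57 genes have opposite signs, with Trpv6 and E230020D15Rik farthest into the other quadrants.

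By share of reads, which is not corrected for length, some single genes of this whole tissue shifted by large amounts. Dmbt1, a scavenger mucin of the epithelium, gained 7197 RPM in KO (6064 to 13261) and 10785 RPM in WT. Lypd8, which keeps flagellated bacteria from the surface, gained 2866 RPM, Muc13 2074 RPM, Eef1a1 1852 RPM and H2-D1 1670 RPM. Cyp2c55 fell by 2533 RPM (3310 to 777), Guca2a fell by 2093 RPM and Car1 fell by 1987 RPM. The drug efflux pump Abcb1a went from 1605 to 660 RPM, and Txnip, an inhibitor of thioredoxin, from 2369 to 1413 RPM.

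The direction of change followed transcript length. With the list divided into 5 equal tiers by merged exon length the share of genes that rose was 70.6% in the shortest tier (up to 2108 bases), then 68.4%, 62.3%, 52.9% and 32.2% in the longest (over 7284 bases). The same genes had positive WT changes in 68.8%, 67.4%, 61.4%, 52.0% and 31.8%. Among protein-coding genes alone the shares in KO ran from 78.3% to 31.6%. Genes that rose had a median exon length of 3320.5 bases and genes that fell of 5218.5. The part of RNA integrity or of library preparation in this order was not tested, and the deposited values hold no measure of either.

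Transcript class went with direction too. Protein-coding genes rose in 2182 of 3636 cases (60.0%). Long non-coding transcripts fell in 184 of 273, with a median fall of -1.20 (WT -0.78), and TEC transcripts fell in 68 of 73, with a median fall of -2.00 (WT -1.02). Each of 7 T cell receptor segments rose. By level per exon length in WT control the lowest of 5 tiers had the widest changes, with a median rise of 1.85 and a median fall of -1.43. In the highest tier these were 0.34 and -0.56, and 70.7% of its genes rose. The genes were selected by the authors' FDR, which a gene with few reads passes only with a large change, so the order of these sizes is set by the selection at least in part and is no result.

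**Figure D5:**
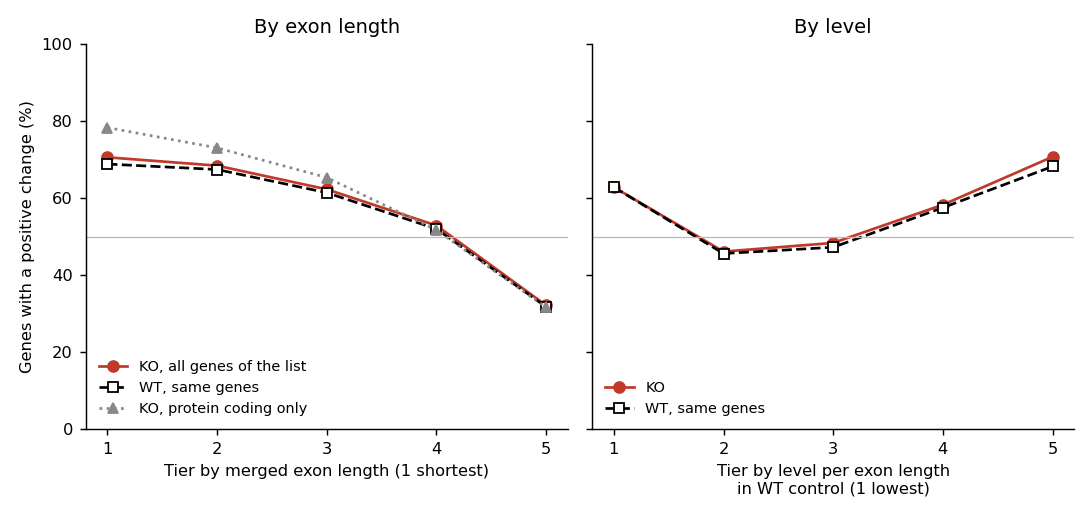
Share of genes (%) with a positive change in 5 equal tiers of the KO list by merged exon length (left) and by level per exon length in WT control (right); filled circles are KO, open squares the same genes in WT and grey triangles protein-coding genes in KO. The share falls from 70.6% to 32.2% from the shortest to the longest tier, and by level it is 62.8% in the lowest, 46.1% in the next and 70.7% in the highest.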

How the data were processed

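Whole-colon RNA of 16 mice was sequenced and the authors mapped the reads to GRCm38 with HISAT2 2.1.0, kept uniquely mapped reads, counted them over exons of merged transcripts in SeqMonk and removed rRNA-annotated reads, after rRNA contamination in 3 samples that are not named. The sample labels give single-end reads and the methods paired-end, and the series' design text speaks of small intestine where the labels say colon. The deposited values are log2 RPM (reads per 1000000), as the authors' means over each group, not corrected for length, in 4 tables of genes past a DESeq2 false discovery rate of 0.05. A further column holds the authors' false discovery rates, which were not used. No column of a single library was used or held, so no test, standard deviation or paired fit across animals was made here.

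Changes were differences of these means, computed with Python 3.11.15 and pandas 2.3.3 on all genes of the KO colitis list. Members of the groups came from 36 gene lists with 1424 genes, of which 652 were in a table and 528 in the KO list. The members and lists were chosen with earlier results of these data known. Genes were named by rule: the 10 largest rises and falls with a KO mean of at least 1 RPM, Clca4b, Gm4841, Saa3, Sgk1 and Tppp, up to 4 members per list or role with the largest change and 2 in the other direction, and list members outside the KO list that differed by at least 1. Some others (such as Cd4, Dmbt1, Lypd8, Hspa5, Trpv6 and Nccrp1) were chosen after their values were seen. Depth was read from the lowest mean per group, taking 0 reads as 0.9, and each of the low means checked fell on whole-read steps. Exon lengths and classes came from GENCODE for 3992 of 4056 symbols, and promoter windows, without those on chromosome 18, from RefSeq. The scripts were tested on simulated data. Alternatives tried are given in the closing section. Some list members are not reported here by name.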

Additional observations from a re-analysis of the deposited data

How the results depend on the processing

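No paired analysis was possible because the deposited values are group means, and leaving out single replicates could not be run for the same reason. Of 190 values under alternatives, 31 moved (a log2 value by 0.2 or more, a count by over 1.5 times, a share out of its 95% exact binomial interval) and 2 changed sign. With a change of at least 1 the counts were 768 rises and 567 falls. Over members outside the WT list the WT medians were 0.22 and -0.40. On log2(RPM + 1) the lowest tier by level had a median rise of 1.09 and fall of -0.88, and the medians were 1.67 for neutrophil, 1.21 for cytokine and chemokine, 1.66 for T and natural killer cell, 1.20 for mast cell and eosinophil genes and 0.96 for metalloproteinases. With means raised to 3 reads they were 1.72 for cytokines and chemokines, 2.20 for T and natural killer cells, 1.80 for mast cells and eosinophils and 1.26 for metalloproteinases. Without genes under 1 RPM they were 1.32 for metalloproteinases, 0.13 for fibroblasts, endothelium and muscle, and 0.41 in place of -0.06 for crypt and Wnt genes, where 4 rose and 4 fell. With level taken as log2 RPM without length the median fall of the lowest tier was -1.69 and 59.6% of the highest tier rose. With level from the KO means the shares that rose were 47.6% in the lowest and 76.7% in the highest tier. Means in place of medians moved 10 lists: acute phase 1.85, neutrophil 3.13, Clca 2.59, enteroendocrine and tuft -0.34, matrix 0.29, complement 1.48, xenobiotic and steroid enzymes -0.49, clock set A 1.93, tubulin -1.13, and goblet cells -0.10 in place of 0.64. Among protein-coding genes 78.3% of the shortest tier rose, an alternative chosen after seeing the data. The causes were not tested. Depth limits genes near 3 reads per library, which gave bounds for 109 rises and 63 falls.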
